A study of Mus musculus with 2 samples.

Results

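The Sprr2 genes encode a family of small proline-rich proteins and lie side by side on mouse chromosome 3. The family was defined by 10 gene symbols, and 9 of them, Sprr2a1, Sprr2a2, Sprr2a3, Sprr2b, Sprr2d, Sprr2e, Sprr2f, Sprr2h and Sprr2k, were found among the 32285 genes of both count matrices. Sprr2g was not analysed here, and the neighbouring Sprr2i and Sprr2j-ps were not among the symbols. The cells came from whole uteri of female C57BL/6J mice aged 6 months. Control mice carried floxed Prickle1 alleles (Prickle1 f/f), and conditional knockout (cKO) mice carried the same floxed alleles with a Cre recombinase driven from Ltf, the lactoferrin gene, which is active in the uterine epithelium. A separate genotype entry in the labels calls both samples wild-type, and the groups used here are those of the titles. Each group was 1 droplet 3-prime library made from the pooled cells of 3 mice, so no difference below has a replicate check and none was tested. Animals, dissociation, library and genotype cannot be told apart, and all intervals are 95% intervals that cover counting error only. The genes were chosen with the difference between these libraries already known, so that difference is given as a description.

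The control library held 45035801 UMIs (unique molecular identifiers, counted transcripts) and the cKO library 57145553. Cells with at least 500 genes and at most 20% mitochondrial UMIs numbered 3653 in control (median 4650 UMIs) and 4950 in cKO (median 5944), and 5 cell barcodes occurred in both sets. The epithelial gate took cells with an Epcam UMI and no Ptprc UMI, that is, with the epithelial adhesion molecule and without the leukocyte antigen CD45. It held 998 control cells (27.3% of cells, median 6459.5 UMIs) and 130 cKO cells (2.63%, median 17410.5 UMIs). No barcode was in the gate of both libraries, while 2 barcodes of the control gate were also those of cKO cells. Because the depths differed, cells were thinned to a fixed number of randomly drawn UMIs before levels were compared. Levels are given in CPM (counts-per-million of the UMIs compared), and since each 3-prime UMI stands for a transcript whatever its length, genes may be compared by them. The targeted gene was rare and was not lower in the library labelled cKO. Prickle1 was at 0.879 CPM (16 UMIs, 0.502 to 1.43) in the control gate cells and 4.28 CPM (19 UMIs, 2.58 to 6.69) in the cKO gate cells, and over all cells at 2.65 and 8.24 CPM (100 and 436 UMIs). In the epithelial-dominant cells defined below it had 12 and 2 UMIs, 0.722 CPM (0.373 to 1.26) and 1.07 CPM (0.129 to 3.85). Prickle1 counts thus do not check the labels in the epithelium, the labels do not say which part of the gene is deleted, and control and cKO mean the libraries so labelled throughout.

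In stratified epithelia such as skin, Sprr2 proteins are cross-linked by transglutaminases into the cornified envelope, the protein shell beneath the membrane of dying keratinocytes. They are encoded in the epidermal differentiation complex together with loricrin, involucrin, filaggrin and many S100 genes. The mouse uterus has a simple, not cornified, epithelium, and there Sprr2 genes are known as genes that oestrogen induces in epithelial cells.

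The promoters are shown first, because the members lie side by side and yet differ widely in level. RefSeq promoter windows of GRCm38.p6 were found for all 9 members, all on the plus strand, and the 250 bases before the start are used here. Of these, 3 are printed: Sprr2f, which carried most of the family's UMIs, Sprr2d, which came next, and Sprr2a3, the Sprr2a copy whose transcripts can in part be told from the others. They lie at chr3:92364937-92365186 for Sprr2f, chr3:92338890-92339139 for Sprr2d and chr3:92285054-92285303 for Sprr2a3. Capitals mark exact matches, on either strand, to the AP-1 motif TGAGTCA and to the octamer motif ATTTGCAT.
Sprr2f: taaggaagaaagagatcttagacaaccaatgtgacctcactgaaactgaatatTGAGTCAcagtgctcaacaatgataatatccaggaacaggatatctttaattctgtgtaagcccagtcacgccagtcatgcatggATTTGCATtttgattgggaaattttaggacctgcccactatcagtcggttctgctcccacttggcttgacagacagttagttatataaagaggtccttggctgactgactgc
Sprr2d: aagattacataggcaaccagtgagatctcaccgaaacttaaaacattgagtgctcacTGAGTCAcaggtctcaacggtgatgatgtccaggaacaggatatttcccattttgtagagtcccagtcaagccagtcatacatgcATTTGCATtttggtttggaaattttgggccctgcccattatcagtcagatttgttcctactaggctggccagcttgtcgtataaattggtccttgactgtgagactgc
Sprr2a3: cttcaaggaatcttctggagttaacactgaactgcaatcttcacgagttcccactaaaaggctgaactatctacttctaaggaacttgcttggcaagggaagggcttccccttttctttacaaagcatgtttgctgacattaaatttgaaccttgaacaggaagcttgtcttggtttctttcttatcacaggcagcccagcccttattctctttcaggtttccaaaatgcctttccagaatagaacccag
Both motifs were found in 6 of the 9 windows, those of Sprr2b, Sprr2d, Sprr2e, Sprr2f, Sprr2h and Sprr2k, with the octamer starting 108 to 112 bases before the gene start. Of 32851 mouse promoter windows of this length, 1.60% held the octamer and 4.46% the AP-1 motif. Neither motif was in the windows of Sprr2a1, Sprr2a2 and Sprr2a3, which were identical to each other over the 222 to 250 aligned bases. The windows follow RefSeq starts, and for Sprr2a1, Sprr2a2, Sprr2a3 and Sprr2b these differ from the GENCODE starts, so what a window holds depends on the start used. Sprr2d and Sprr2e shared 89.9% of 248 aligned bases, Sprr2e and Sprr2f 81.6% of 234, and Sprr2h and Sprr2k 81.9% of 248. The full oestrogen response element, GGTCA and TGACC with 3 bases between, was in none of the 9 windows and in 0.0639% of all windows. The single element GGTCA was in the Sprr2f window alone among the members and in 35.2% of all windows. The interferon-type repeat, GAAA given again after 2 bases, was in none of the 9 and in 2.98% of all. A match is a match of letters only and no sign of binding.

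How well the copies can be told apart by 3-prime counts depends on their 3-prime ends. In GENCODE M21, on GRCm38, Sprr2f spans 92365187 to 92366442 on chromosome 3 and Sprr2d 92339140 to 92340873. Every stretch of 90 bases in the last 500 bases of the Sprr2b, Sprr2d, Sprr2e, Sprr2f, Sprr2h and Sprr2k transcripts was found in no other gene. For Sprr2a1 and Sprr2a2 no such stretch was found in that gene alone, and for Sprr2a3 57.7% were, the rest being shared with Sprr2a1 and Sprr2a2. The annotated spans of Sprr2a1 and Sprr2a2 also overlap. Counts of these 3 genes are therefore uncertain, and the 0 UMIs of Sprr2a2 do not show that this copy was silent.

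Sprr2f made up most of the family's transcripts. Of 95296 Sprr2 UMIs in the control gate cells, 92.0% were Sprr2f, 3.99% Sprr2d, 2.25% Sprr2b, 0.895% Sprr2e and 0.765% Sprr2a3. Sprr2k had 85 UMIs, Sprr2h 44, Sprr2a1 3 and Sprr2a2 0. In the cKO gate cells Sprr2f held 85.2% of 5566 Sprr2 UMIs and Sprr2d 5.68%. Sprr2f thus led in both libraries. The order below it in cKO rests on single cells: 1 cell held 146 of the 316 Sprr2d UMIs, and another, outside the epithelial-dominant set described below, held 154 of the 176 Sprr2a3 UMIs.

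At 1000 UMIs per cell (990 control and 130 cKO cells) the summed Sprr2 level was 3638 CPM (3521 to 3759) in control and 562 CPM (440 to 706) in cKO. That is 6.48-fold lower in cKO (5.14 to 8.29), a log2 ratio of -2.70, where the median of all 6231 genes with at least 20 thinned UMIs was 0.14. Sprr2f alone was at 3357 CPM (3243 to 3473) in control and 477 CPM (366 to 611) in cKO, 7.04-fold lower (5.48 to 9.20). With the gate applied to the thinned counts (509 control and 42 cKO cells), Sprr2f was 2.98-fold and the sum 2.72-fold lower. A thinned Sprr2f UMI was seen in 65.9% of control gate cells (62.8 to 68.8) and 17.7% of cKO gate cells (11.6 to 25.4), and before thinning in 83.2% and 30.8%. Leukocytes, which should lack the gene, are given below as its background. Of the 9 members, 4 had at least 20 thinned UMIs over both libraries, and 3 of them (Sprr2b, Sprr2d and Sprr2f) were at least 4-fold lower in cKO. Of all 6231 genes, 5.7% were at least 4-fold lower and 5.01% at least 4-fold higher (18.5% and 21.1% at 2-fold), and since the members were chosen on this contrast nothing is read from their count.

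The less abundant members rested on few cKO UMIs at this depth. Sprr2d had 145 thinned UMIs in control and 3 in cKO, 6.35-fold lower (2.13 to 31.1). Sprr2b had 85 and 2, 5.58-fold lower (1.50 to 46.8), but only 1.07-fold lower where the gate was applied to the thinned counts. Sprr2e was at 32.3 CPM in control and 30.8 CPM in cKO, and Sprr2a3 at 14.1 and 15.4 CPM, with intervals that overlapped widely. Sprr2h and Sprr2k had 2 and 1 thinned UMIs in control and 0 in cKO, which is below what this depth can compare.

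**Figure D1:**
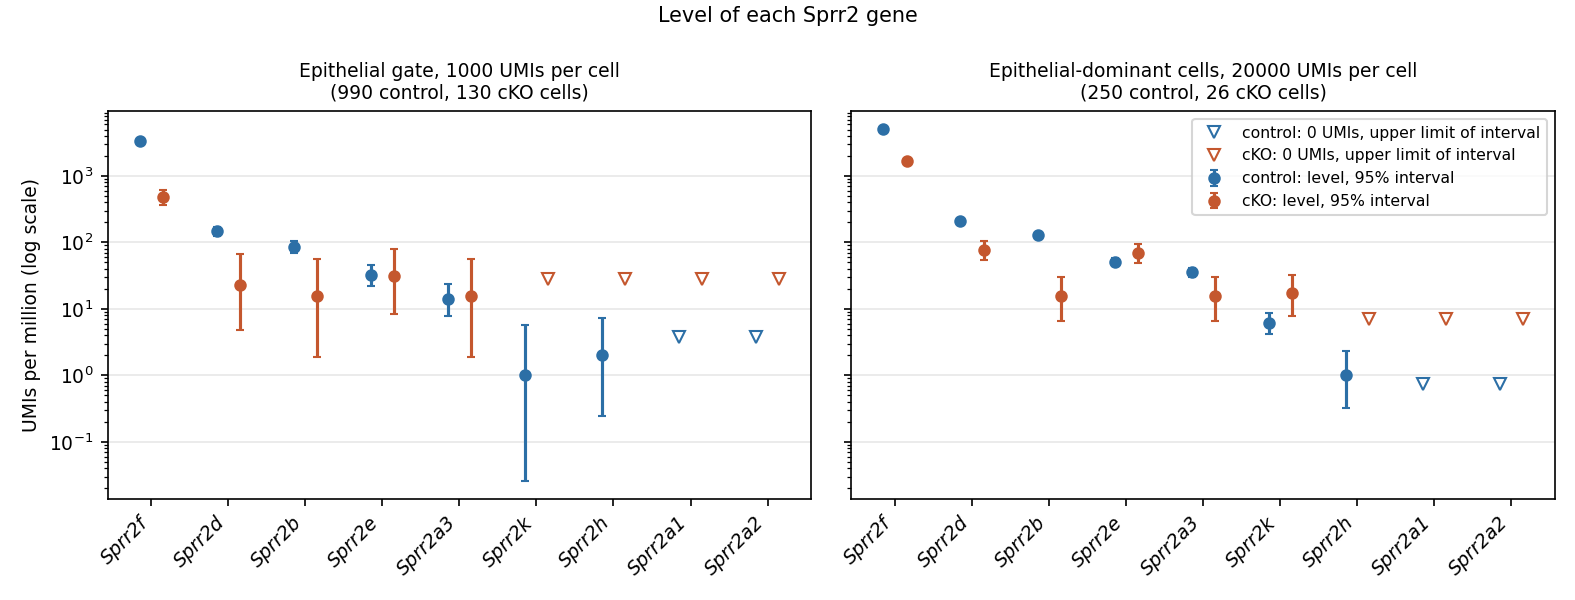
Level of each Sprr2 gene in CPM (log axis) in control (blue) and cKO (orange), with 95% counting intervals; open triangles mark the upper limit for genes with 0 UMIs. Left, all epithelial gate cells thinned to 1000 UMIs, where Sprr2f was at 3357 and 477 CPM; right, epithelial-dominant cells thinned to 20000 UMIs, where it was at 5019 and 1687 CPM.

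The cKO gate did not hold the same mixture of cells as the control gate, and this moved with the result. At 1000 UMIs per cell the 9 simple-epithelium genes (Epcam, Cdh1, Krt7, Krt8, Krt18, Krt19, Cldn3, Cldn4, Cldn7) summed to 11946.5 CPM in control and 5454 CPM in cKO. The 6 stromal fibroblast genes, all detected in both, summed to 573 and 6062 CPM, and the 4 mesothelial genes Upk3b, Msln, Wt1 and Lrrn4, likewise all detected, to 33.3 and 623 CPM. The 5 smooth muscle genes summed to 104 and 500 CPM. In 74 of the 130 cKO gate cells the UMIs of the stromal, smooth muscle, endothelial and leukocyte lists equalled or outnumbered those of the epithelial list, against 57 of 998 control gate cells. These 74 cells held 0 Sprr2f UMIs, which by the 3-count limit for a count of 0 allows a share of cells with one of up to 4.05%, while the 57 control cells held 77. A UMI of the mesothelial genes Upk3b or Lrrn4 was found in 49 cKO gate cells and in 37 control gate cells.

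Sprr2 was therefore also compared in epithelial-dominant cells, a set defined after these values were seen: gate cells with more epithelial-list UMIs than UMIs of those other lists together, and no Upk3b or Lrrn4 UMI. They numbered 929 in control and 49 in cKO. At 1000 UMIs per cell Sprr2f was at 3535 CPM in 922 control cells and 1204 CPM in 49 cKO cells, 2.94-fold lower (2.27 to 3.87), with a UMI in 69.2% and 42.9% of cells. The summed Sprr2 level was 2.73-fold lower (2.15 to 3.51) than in control, so less than the 6.48-fold of the whole gate. No member was at least 4-fold lower here, against 3.27% of 5501 genes at least 4-fold lower and 2.98% higher, and 3 of the 4 with at least 20 thinned UMIs were at least 2-fold lower, against 13.7% of genes lower and 17.6% higher by that much.

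Deep cells gave the less abundant members enough UMIs to be compared. With 20000 UMIs drawn from each of 250 control and 26 cKO epithelial-dominant cells, Sprr2f was at 5019 CPM (4957 to 5081) and 1687 CPM (1577 to 1802), 2.98-fold lower (2.78 to 3.19). In the same cells the 9 simple-epithelium genes went from 2.42-fold lower in cKO (Cldn3, a tight junction claudin, at 763 and 315 CPM) to slightly higher (the keratin Krt8, at 5151 and 5521 CPM). Cldn4 was 2.06-fold, Krt19 1.91-fold, Krt7 1.35-fold and Cldn7 1.09-fold lower. Krt18 (2034 and 1906 CPM), Epcam (898 and 906 CPM) and Cdh1 (1069 and 1035 CPM) had intervals that include no difference. Sprr2d was at 212 and 76.9 CPM, 2.75-fold lower (2.01 to 3.87). Sprr2b was at 128 and 15.4 CPM, 8.32-fold lower (4.20 to 19.4). Sprr2a3 was at 35.4 and 15.4 CPM, 2.30-fold lower (1.14 to 5.41).

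Sprr2e and Sprr2k did not show the same direction. Sprr2e was at 51.0 and 69.2 CPM, and the interval of its cKO to control ratio of 1.36 (0.930 to 1.93) includes 1. Sprr2k was at 6.20 and 17.3 CPM, which is 2.79 times the control level (1.17 to 6.01) and rests on 31 and 9 UMIs. Of the 6 members with at least 20 UMIs in this comparison, 1 (Sprr2b) was at least 4-fold lower and 4 at least 2-fold lower, against 3.01% and 11.4% of 9645 genes. Of those genes 4.05% were at least 4-fold and 20.4% at least 2-fold higher, and their median log2 ratio was 0.21. In all gate cells of this depth (275 and 61), 3 of 6 members were 4-fold lower, against 3.58% of 10756 genes lower and 8.88% higher. With all UMIs of the gate summed and no thinning, 1 of 7 members (Sprr2f) was, against 3.77% of 13286 genes lower and 10.8% higher.

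Single cells carried much of these small counts. Of the 36 Sprr2e UMIs drawn from the 26 cKO cells, 31 came from 1 cell, the 1 deep epithelial-dominant cKO cell with the stromal transcript Col1a2 (87 UMIs before thinning). Without the cell with most Sprr2e in each library the gene was 4.38-fold lower in cKO (1.85 to 13.6). This leave-out is one-sided, since the highest of 26 cells is set against the highest of 250, and it moved all 6 compared genes toward lower in cKO. For Sprr2k 7 of 9 cKO UMIs came from 1 cell, and the ratio without the leading cells was 0.905 (0.103 to 3.68). Leaving out the leading cells moved Sprr2a3 from 2.30-fold to 8.03-fold lower (2.19 to 66.9, 2 cKO UMIs left) and Sprr2b from 8.32-fold to 46.0-fold (8.21 to 1820, 1 cKO UMI left). It moved Sprr2d from 2.75-fold to 4.75-fold (3.06 to 7.81) and Sprr2f from 2.98-fold to 3.44-fold (3.20 to 3.71). Of these 6 genes Sprr2f thus depended least on a single cell. Before thinning, however, 1 cKO cell with 203575 UMIs held 1459 of the 4742 Sprr2f UMIs of the cKO gate, while the leading control cell held 2707 of 87635.

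**Figure D2:**
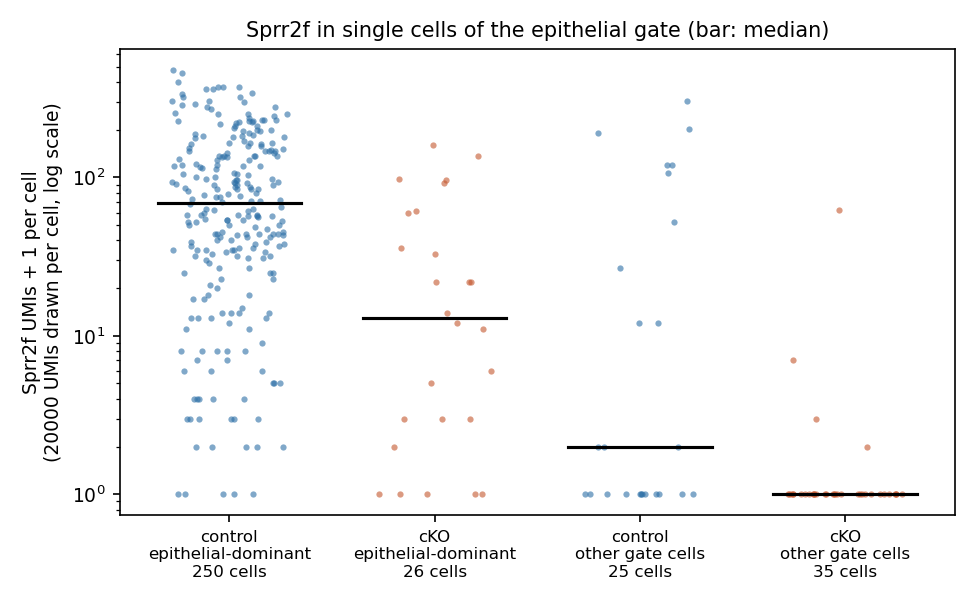
Sprr2f UMIs plus 1 (log axis) in each gate cell with at least 20000 UMIs, after drawing 20000 UMIs, for control (blue) and cKO (orange); points are cells and bars medians, and cells at 1 had no Sprr2f UMI. Epithelial-dominant cells had a median of 68 in control and 12 in cKO, before the 1 was added, and 31 of the other 35 cKO gate cells had none.

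Sprr2f varied widely from cell to cell in both libraries. In the 250 control epithelial-dominant cells it ranged from 0 to 473 UMIs of 20000 with a median of 68, the middle part of the cells lying between 30 and 146 (quartiles), and 5 cells had none. In the 26 cKO cells it ranged from 0 to 159 with a median of 12, quartiles of 2 and 53, and 5 cells with none. The groups of cells overlapped: 5 cKO cells (19.2%) reached the control median. At the upper end 57 control cells (22.8%) reached or passed the cKO maximum, but this sets 250 cells against the highest of 26. At least 100 Sprr2f UMIs were found in 36.8% of control and 7.69% of cKO cells.

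The difference in Sprr2f was not the same at every depth. Among epithelial-dominant cells with 1000 to below 3000 UMIs Sprr2f was at 2922 CPM in 180 control cells and 2143 CPM in 7 cKO cells, a ratio whose interval includes 1 (1.36-fold lower, 0.819 to 2.45). From 3000 to below 30000 UMIs, 555 control cells held 1776 thinned Sprr2f UMIs (3200 CPM) and 21 cKO cells held 3 (143 CPM), 22.4-fold lower (7.65 to 109). At 30000 UMIs and above it was at 5118 CPM in 187 control cells and 1952 CPM in 21 cKO cells, 2.62-fold lower (1.92 to 3.68). The epithelial list itself was at 6571, 6619 and 16143 CPM in these 3 sets of cKO cells and at 10656, 11701 and 16786 CPM in control. The shallower cKO cells thus also held fewer epithelial transcripts per UMI than control cells of the same depth.

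**Figure D3:**
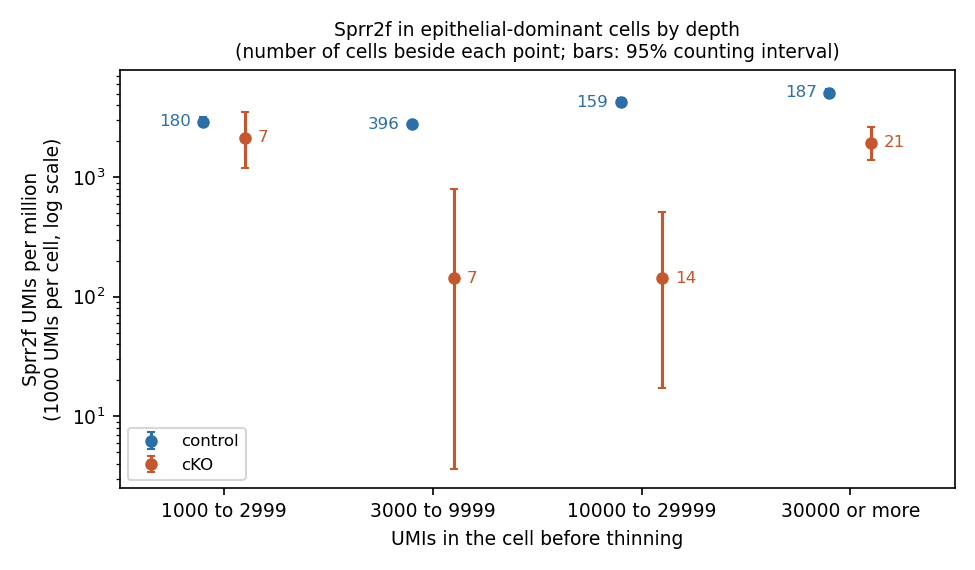
Sprr2f in CPM (log axis) of epithelial-dominant cells thinned to 1000 UMIs, by the number of UMIs a cell had before thinning, for control (blue) and cKO (orange) with 95% counting intervals; the number beside each point is the number of cells. The cKO cells between 3000 and 30000 UMIs lay far below control, while the shallowest 7 did not differ beyond counting error.

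Sprr2f was also set against epithelial content directly. Per 100 UMIs of the epithelial list it had 33.5 UMIs in control and 13.5 in cKO gate cells. In epithelial-dominant cells the values were 33.4 and 14.9, which is 2.23-fold lower in cKO (2.16 to 2.31). The same list served to select these cells, which were 93.1% of the control and 37.7% of the cKO gate, so that ratio is not free of the selection. In cell-free barcodes, those with at most 100 UMIs, which are taken to hold RNA free in the suspension, they were 34.5 and 8.22, 4.20-fold lower (3.47 to 5.12). In the stromal and leukocyte gates of cKO, Sprr2f was at 1.15 and 1.60 per 100, against 27.2 and 23.0 in control. In cells with both Epcam and Ptprc it was higher in cKO, at 36.1 against 33.2. The ratio thus differed between gates in cKO, and in control too, where it was 11.9 in the endothelial and 56.4 in the smooth muscle gate.

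Free Sprr2f RNA was abundant in control: in cell-free barcodes the gene was at 1652 CPM in control, above the 1069 CPM of all UMIs of the cKO epithelial gate, and at 48.1 CPM in cKO. In the gates of other cell types Sprr2f was lower than in cell-free barcodes and is read as background. In control it was at 18.6 CPM in leukocyte-gate cells, 11.8 CPM in stromal and 146 CPM in smooth muscle cells. The 38 control endothelial cells had 45 Sprr2f UMIs, with a thinned one in 5 of 37 cells (13.5%, 4.54 to 28.8). Sprr2f made up 93.3%, 93.7% and 94.3% of the Sprr2 UMIs in the leukocyte, stromal and smooth muscle gates, against 90.6% in cell-free barcodes and 92.0% in the epithelial gate. A thinned Sprr2f UMI was seen in 2.09% of control leukocyte-gate cells (median 6431 UMIs), which should lack the gene, against 65.9% in the epithelial gate (median 6459.5 UMIs). In cKO these 3 gates held 12, 3 and 0 Sprr2f UMIs and the endothelial gate 1, and a thinned one was in 0.117% of leukocyte-gate cells.

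**Figure D4:**
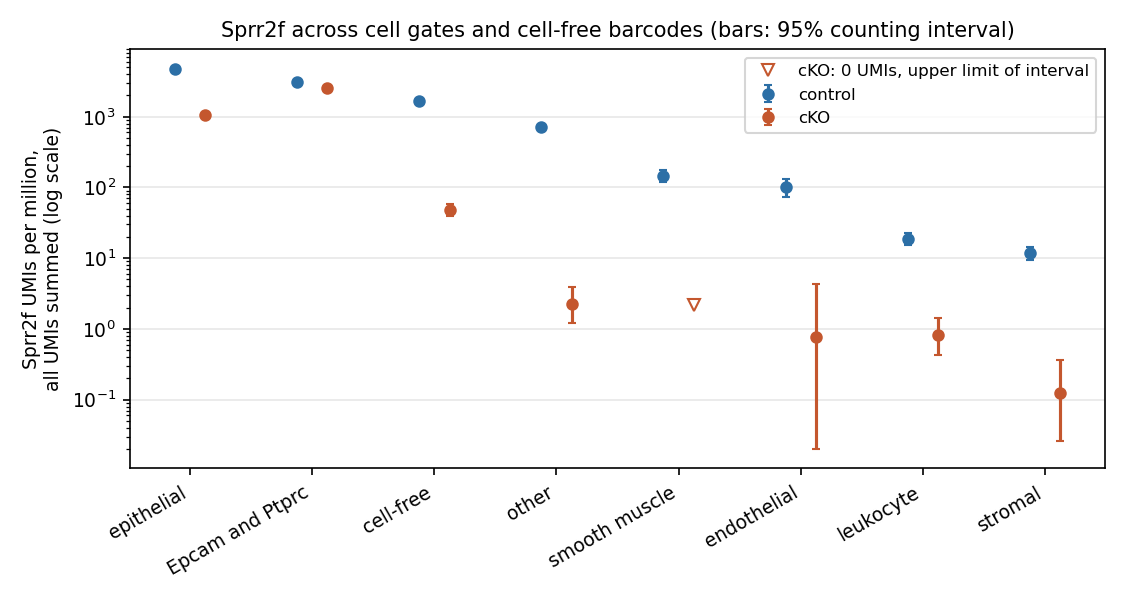
Sprr2f in CPM, from all UMIs (log axis), in each gate of cells and in cell-free barcodes, for control (blue) and cKO (orange) with 95% counting intervals; the open triangle is the upper limit for 0 UMIs. Control lay above cKO in every gate drawn, by least in the cells with both Epcam and Ptprc.

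A further pair of gates held Sprr2f above the level of these gates of other cell types. Control cells with none of the gating genes had 715 CPM, below the 1652 CPM of cell-free barcodes, and a thinned UMI in 24.1% of cells. Per 100 epithelial-list UMIs they had 27.2 of Sprr2f, beside 33.5 in the epithelial gate and 34.5 in cell-free barcodes. These are sums over cells, and whether single cells held both was not examined. Cells with none of the gating genes in cKO had 2.25 CPM. Cells with both Epcam and Ptprc UMIs, 50 in control and 53 in cKO, had 3133 and 2515 CPM when all UMIs were summed. At 1000 UMIs per cell these were 2420 and 283 CPM, with a Sprr2f UMI in 21 of 50 and 4 of 53 cells, so the summed cKO value rested on few deep cells.

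The less abundant members were found together in a minority of cells. Among the 250 deep control cells, 146 (58.4%) had no UMI of Sprr2a3, Sprr2b, Sprr2d or Sprr2e, and 45 (18.0%) had at least 2 of these 4 genes. Sprr2d was found in 44.2% of the 52 cells with Sprr2b and in 12.6% of the 198 cells without it. Sprr2e was found in 35.4% of the 48 cells with Sprr2d and in 4.95% of the cells without, and Sprr2b in 46.8% of the 47 cells with Sprr2a3 and 14.8% of the cells without. The 10 leading cells held 54.2% of the UMIs of these 4 genes together. For Sprr2f the 10 leading cells held 15.3%, so Sprr2f was spread over most epithelial cells and the other 4 were not.

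Sprr2f was higher in the cells with more of the other members. Its median was 43.5 UMIs in cells with none of the 4, 86 with 1, 149.5 with 2, 230 with 3 and 260.5 with all 4. The median number of UMIs before thinning also differed, from 38839.5 in cells with none to 77575 in the 6 cells with all 4. The Pearson r between log2 (UMIs + 1) of Sprr2f and of the sum of the 4 genes was 0.41 over the 250 cells, which share 1 library and 1 thinned depth. In cKO 18 of 26 cells had none of the 4 and 3 had at least 2, too few to follow this order.

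**Figure D5:**
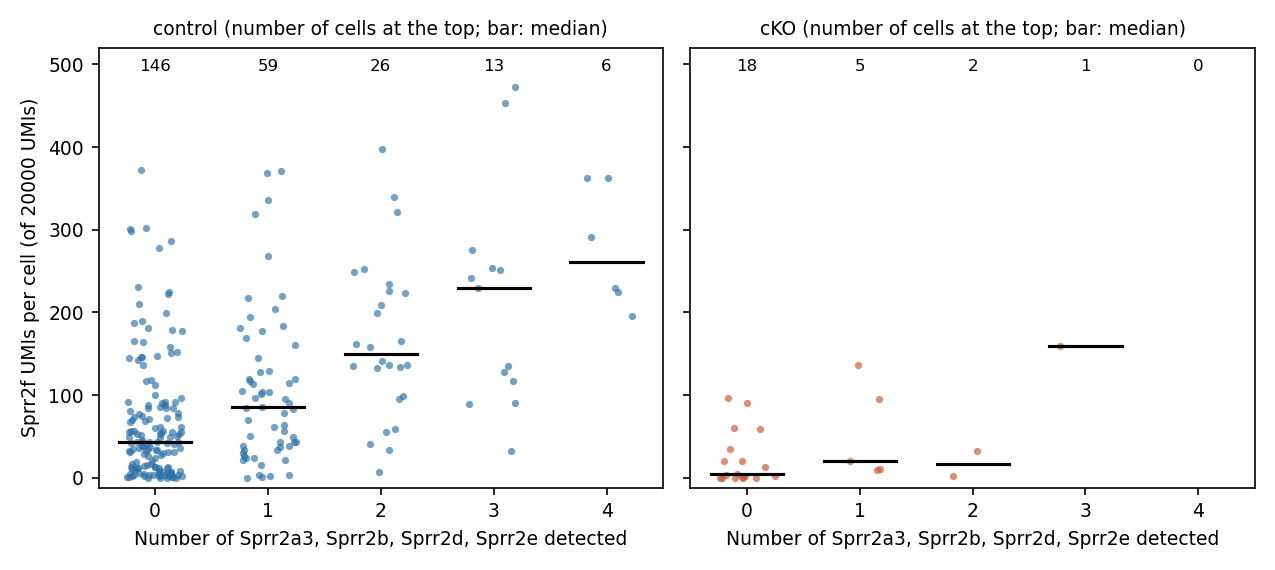
Sprr2f UMIs per epithelial-dominant cell (of 20000 drawn) by how many of Sprr2a3, Sprr2b, Sprr2d and Sprr2e were detected in the same cell, in control (left) and cKO (right); points are cells, bars medians, and the number of cells stands at the top. The control median goes from 43.5 with none to 260.5 with all 4.

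Among control gate cells at 1000 UMIs, the 5 genes most like the summed Sprr2 UMIs, of 2820 seen in at least 5% of 990 cells, were Clca1 (Pearson r 0.32), Gsto1 (0.32), Tmsb4x (0.28), Prxl2a (0.27) and Wfdc2 (0.26). Clca1 is a secreted regulator of chloride channels and Gsto1 a glutathione transferase. These are weak correlations of sparse counts across cells of 1 library and are given as a ranking only. In the deep epithelial-dominant cells Clca1 was at 849 CPM in control and 9.62 CPM in cKO, 88.3-fold lower (37.8 to 272). Gsto1 was at 1678 and 1102 CPM, 1.52-fold lower, and Wfdc2 at 1328 and 3219 CPM, 2.42-fold higher in cKO. Genes that went with Sprr2 among control cells therefore did not share 1 direction between the libraries.

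For the sum of Sprr2a3, Sprr2b, Sprr2d and Sprr2e over the 250 deep control cells, a ranking added after the data were seen, the 5 leading genes of 9810 were Nqo1 (r 0.67), Esd (0.59), Il1f6 (0.59), Krt6a (0.58) and Txnrd1 (0.58). Nqo1 is a quinone reductase, Txnrd1 thioredoxin reductase, Il1f6 the cytokine interleukin-36 alpha and Krt6a a keratin of activated epithelium. Nqo1 was detected in 26 of the 45 cells with at least 2 of the 4 Sprr2 genes and in 3 of the 146 cells with none. Krt6a was at 369 CPM in the former and 19.5 CPM in the latter. Between the libraries these genes were higher in cKO: Nqo1 25.6 against 44.2 CPM, Krt6a 83.6 against 504 CPM, Il1f6 212 against 679 CPM and Txnrd1 267 against 621 CPM. The Nqo1 ratio of 1.73 (1.06 to 2.71) rested on 128 and 23 UMIs. Of all genes in these cells, 20.4% were at least 2-fold higher in cKO. In these same cells Sprr2a3, Sprr2b and Sprr2d were lower in cKO, while Sprr2e was at 51.0 and 69.2 CPM.

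Cells were also divided by a UMI of hormone-response or cycling genes. All 250 deep control cells had an Ltf UMI, as did 15 of 26 in cKO, where the Sprr2f median was 21 with Ltf and 11 without, while the levels were 1393 and 2086 CPM. In control the Sprr2f median was 69 in the 185 cells with an Esr1 UMI (oestrogen receptor alpha) and 57 in the 65 without. It was 60.5 in 66 cells with Pgr (progesterone receptor) and 69.5 in 184 without, and 50 in 30 cells with Mki67 or Top2a and 72.5 in 220 without. Sprr2f was thus found on both sides of each division that had cells on both, with medians that differed by far less than the spread between cells.

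Of 33 listed symbols of cornified envelope and epidermal differentiation complex genes, 32 had a row, the other, Loricrin, being a second name of the listed Lor. Most were not detected: 12 were detected in control and 10 in cKO gate cells at 1000 UMIs. The 4 with at least 20 UMIs were all lower in cKO, beside 46.0% of all genes, and none 4-fold, beside 5.7%. Their median log2 ratio was -0.89 beside 0.14 for all genes. They were Sprr1a, a related small proline-rich protein, Anxa1 (annexin), Tgm2 (transglutaminase) and Ppl (periplakin). In deep epithelial-dominant cells Sprr1a was at 1779 and 1602 CPM, Anxa1 at 1993 and 1588 CPM, Tgm2 at 766 and 450 CPM and Ppl at 149 and 108 CPM. Of 8 list genes with at least 20 UMIs there, none was 4-fold lower and 1 was 4-fold higher, Lce3c, a late cornified envelope gene named after its values were seen, at 18.6 and 113 CPM. Genome-wide 3.01% were 4-fold lower and 4.05% higher, and the list median was -0.24 beside 0.21. Of the 8, 5 were lower in value, beside 41.2% of all genes. Lor (31.4 and 100 CPM) and Evpl (16.8 and 36.5 CPM) were higher in cKO. Sprr1a, in the same cluster on chromosome 3 at 92483952 to 92485895, was thus 1.11-fold lower (1.03 to 1.19) where Sprr2f was 2.98-fold lower.

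The S100 genes of the same chromosome region, calcium-binding proteins, held 6 of 14 with at least 20 UMIs in the gate, and a median of -0.21 beside 0.14 for all genes. None of the 6 was 4-fold different, beside 5.7% of all genes lower and 5.01% higher. In deep epithelial-dominant cells S100a6 was at 1514 and 1665 CPM, S100a11 at 955 and 1104 CPM, S100a10 at 657 and 885 CPM and S100a16 at 151 and 158 CPM. Of 10 S100 genes there 1 was 4-fold lower (S100a4) and 1 higher (S100a2), beside 3.01% and 4.05% of all genes. Both were named after their values were seen and had few UMIs in 1 library, and the list median was -0.06 beside 0.21.

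Of 14 oestrogen-induced genes of uterine epithelium, 4 were at least 4-fold lower in the cKO gate (Ltf, Lcn2, Clca1 and Padi2), 1 higher (Slpi), and the median log2 ratio was -1.46, beside 5.7% and 5.01% of all genes and a median of 0.14. In deep epithelial-dominant cells 3 of 14 were 4-fold lower and none higher, beside 3.01% and 4.05% of all genes, with a median of -0.79 beside 0.21. Lcn2, which encodes an iron-siderophore carrier, was at 4519 CPM in control and 1969 CPM in cKO, 2.29-fold lower (2.16 to 2.45). Complement C3 was at 2289 and 1658 CPM, 1.38-fold lower (1.29 to 1.48). Ltf was at 1658 and 112 CPM, 14.9-fold lower (11.5 to 19.6), and it is the gene from which the Cre of the cKO is driven. The 2.98-fold of Sprr2f thus lay between the folds of Lcn2 and Ltf, but the list did not fall as a whole. Of the 14, 10 were lower in value, beside 41.2% of all genes. Among the others Car2, named after its values were seen, was at 292 and 837 CPM, 2.86 times the control level (2.56 to 3.19).

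Of 10 progesterone and receptivity genes, 4 had at least 20 UMIs in the gate, with a median of 0.25 beside 0.14. None was 4-fold different, beside 5.7% of all genes lower and 5.01% higher, and 1 was lower in value, beside 46.0%. In the deep cells 1 of 5 was 4-fold higher, beside 4.05% of all genes. It was Hdc, which makes histamine and was named after its values were seen, at 7.20 and 28.8 CPM. Fst, an activin antagonist, was there at 63.8 and 237 CPM, Gata2 at 62.6 and 65.4 CPM, Areg, an epidermal growth factor receptor ligand, at 29.2 and 40.4 CPM and Lpar3 at 29.4 and 9.62 CPM. Of 16 transcription factors of steroid response and barrier genes, 12 had at least 20 UMIs in the gate, 1 (Elf3) was 4-fold lower, beside 5.7% of all genes, and the median was -0.88 beside 0.14. In the deep cells none of 15 was 4-fold lower or higher and 13 were lower in value, as were 41.2% of all genes, with a median of -0.65 beside 0.21. Elf3, an epithelial ETS factor, was at 688 and 267 CPM, Klf4 at 1746 and 721 CPM, Klf5 at 740 and 471 CPM, and Jun, an AP-1 subunit, at 969 and 900 CPM. Esr1 was at 100.4 and 96.2 CPM.

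Lists of other cell types were also read in the deep epithelial-dominant cells. The stromal, smooth muscle, endothelial and leukocyte lists helped to define this set, so their low values do not check its label. The mesothelial genes Msln and Wt1 had 2 and 1 UMIs in control and 0 and 1 in cKO, while Upk3b and Lrrn4 are at 0 by the definition of the set. The 6 stromal genes summed to 35.8 and 190 CPM. The 5 smooth muscle genes summed to 28.2 and 567 CPM, with 280 of the cKO UMIs from Acta2, and the 7 leukocyte genes to 50.8 and 51.9 CPM, with Ptprc at 0 by the gate. Glandular genes summed to 1.00 and 51.9 CPM (25 cKO UMIs of Prss29), and the 14 stratified-epithelium genes to 237 and 952 CPM. The 5 ciliated or oviduct genes summed to 19.4 and 80.8 CPM, and a Foxj1 UMI was found in 3 of these cKO cells and in no control one. The part of these in the Sprr2 values was not tested. 1 cKO gate cell outside this set had 272 Krt5 and 264 Krt13 UMIs, stratified keratins, with 3 Upk3b UMIs, and held 154 of the 176 Sprr2a3 UMIs of the cKO gate.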

How the data were processed

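The 2 deposited unfiltered 10x count matrices, 1 per group, hold whole-number UMI counts per gene and barcode, made by the authors with Cell Ranger 6.1.1 on mm10, per the submitters' processing notes. Members and gene lists were chosen with earlier results of these data known. Cells needed at least 500 genes and at most 20% mitochondrial UMIs, no doublet caller was run, and barcodes with at most 100 UMIs were taken as cell-free. Gate cells were thinned without replacement to 1000 UMIs and, in an added analysis, to 20000. Intervals are exact Poisson (levels), Clopper-Pearson (shares) and conditional binomial (ratios) at 95%. A gene counted as different at 4-fold with at least 20 thinned UMIs over both libraries; a count of 0 was set to a floor of 3. Named genes were all members, up to 4 genes per list with most thinned UMIs, and the 5 most like the Sprr2 sum. Python 3.11.15, numpy 2.4.6, scipy 1.17.1 and pandas 2.3.3 were used.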

Additional observations from a re-analysis of the deposited data

How the results depend on the processing

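No paired analysis was possible because each group had 1 library. The summed Sprr2 log2 ratio of -2.70 was negative under all 16 alternatives (-2.91 to -1.44), and 11 of them stayed within its interval. It was -2.06 with no thinning and counts summed, -2.28 with at least 2 Epcam UMIs, -1.44 with the gate applied to thinned counts, -1.45 in epithelial-dominant cells and -1.54 in those cells at 20000 UMIs. The epithelial-dominant set and the depth of 20000 UMIs were chosen after seeing the data. The number of members at least 4-fold lower, 3 as reported, was 1 with no thinning, 1 with the gate on thinned counts, 0 in epithelial-dominant cells and 1 in those at 20000 UMIs, and 2 to 4 under the others. The share of control cells with an Sprr2 UMI, 67.0% at 1000 UMIs, moved with depth: 55.9% at 500 UMIs, 76.7% at 2000, 84.0% unthinned and 94.9% at 20000. It was 72.6% with at least 2 Epcam UMIs, 71.7% with the gate on thinned counts, 70.4% in epithelial-dominant cells and 98.4% in those at 20000 UMIs. The cKO share, 19.2%, was 33.1% unthinned, 40.5% with the gate on thinned counts, 46.9% in epithelial-dominant cells, 84.6% in those at 20000 UMIs and 44.3% in gate cells at 20000 UMIs. The cause of these moves was not tested beyond the change in depth or in cells that each alternative makes. Sprr2f was lower in cKO under all 16 alternatives, 2.94-fold to 8.58-fold. The 49 epithelial-dominant cKO cells, 26 of them deep, limit every member, and the Sprr2f difference itself varied with the depth of the cells compared.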
